A study of Sus scrofa with 6 samples.

Results

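The genes TSPO, SULT1E1 and CYP8B1, which handle steroids and sterols, were followed across replicate RNA samples of pig (Sus scrofa) blastocysts. They were chosen by gene symbol from the platform annotation, among the probes with a usable ratio on all 6 arrays. Each has 1 probe (1252, 7302 and 17238), and together they are 3 of the 175 genes with a symbol and 3 of the 56 named probes measured on all 6 arrays. The choice was made with their differences between RNA samples already known, so those differences are given as a description. Calls at an adjusted p under 0.05 are listed for them below, but nothing is read from these calls.

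The study hybridised amplified RNA of day 5 blastocysts, given as day 5 to 6 in the series design, in a loop of 3 biological replicate RNA samples. Arrays 1 and 2 carried RNA sample 2 beside 1, arrays 3 and 4 carried 3 beside 1, and arrays 5 and 6 carried 3 beside 2, with the Cy3 and Cy5 dyes exchanged on the second array of each pair. All 3 RNA samples carry the same stage label, and no treatment, genotype or other stage was given, so the comparison asks only how far replicate samples differed in these genes. Neither the breed nor how many embryos made up an RNA sample is given in the sources used here. Each RNA sample is a single unit, so the spread reported is that between hybridisations of the same RNA.

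TSPO is a protein of the outer mitochondrial membrane that binds cholesterol and has been linked to its passage towards the steroid-making enzymes. SULT1E1 is the oestrogen sulfotransferase, which adds a sulfate group to oestrogens, a form that does not bind the oestrogen receptor. CYP8B1 is a sterol hydroxylase of bile acid synthesis and directs the pathway towards cholic acid, chiefly in liver. The pig conceptus is known for the oestrogens it secretes when it elongates, at a stage later than the blastocysts measured here.

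Each value is a log2 ratio of the channels of 1 array. It was centred on the array's median over the 5431 probes measured on all 6 arrays and turned so that it reads as the higher-numbered RNA sample minus the lower-numbered. The direction of the deposited ratio was not stated, and Cy5 over Cy3 was taken as likely, Cy5 being the first channel in the labels. With the reverse direction every sign below would turn, while the sizes and the opposition between genes would stay. Arrays 1 and 2 had 64.3% and 48.4% of all probes without a usable ratio, against 1.02% to 33.5% on the other arrays. Array 1 also had the median farthest from 0, at -2.50. Uncentred, the median fitted difference of all tested probes was 1.25 (2 minus 1), 0.23 (3 minus 1) and -0.92 (3 minus 2), so every difference below is relative to the median probe.

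TSPO was low in RNA sample 2 against both other RNA samples, by 8.70-fold against RNA sample 1 and by 13.0-fold against RNA sample 3 in the fit of the whole loop. For RNA samples 2 minus 1 its log2 ratio was -3.45 on array 1 and -3.51 on array 2. For RNA samples 3 minus 2 it was 3.60 on array 5 and 3.08 on array 6. All 4 arrays that held RNA sample 2 thus put it below the other RNA sample, and the dye-swapped arrays of these pairs lay 0.057 and 0.52 apart. The pair average of 3 minus 2, 3.34, was the highest of the 5431 tested probes, and that of 2 minus 1, -3.48, was the 4th lowest. Between RNA samples 3 and 1 the arrays gave 1.34 and 0.54, and that pair average of 0.94 ranked 13th from the highest, in a pair where the SD over all tested probes was only 0.31.

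SULT1E1 went the other way and was high in RNA sample 2, by 9.50-fold over RNA sample 1 and by 6.84-fold over RNA sample 3 in the fit. Its log2 ratio for RNA samples 2 minus 1 was 3.40 on array 1 and 3.63 on array 2, the 7th highest pair average of all tested probes. For RNA samples 3 minus 2 it was -3.19 on array 5 and -1.83 on array 6, and that pair average of -2.51 was only the 149th lowest. The sign was the same on every array that held RNA sample 2, but arrays 5 and 6 differed by 1.36. Between RNA samples 3 and 1 the values were -0.006 and 0.43, on either side of 0, and the pair average ranked 1050th from the highest.

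CYP8B1 had smaller values, and like SULT1E1 it was higher in RNA sample 2 than in RNA sample 3. For RNA samples 3 minus 2 its log2 ratio was -1.15 on array 5 and -1.48 on array 6, so both arrays put RNA sample 2 above RNA sample 3. For RNA samples 2 minus 1 it was 1.42 on array 1 and -0.24 on array 2, so the arrays of this pair went opposite ways. For RNA samples 3 minus 1 the values were 0.22 and -0.41, again on both sides of 0. The pair average of 3 minus 2, -1.31, was larger in size than that of 85.0% of tested probes, against 46.0% for 2 minus 1 and 32.6% for 3 minus 1.

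**Figure D1:**
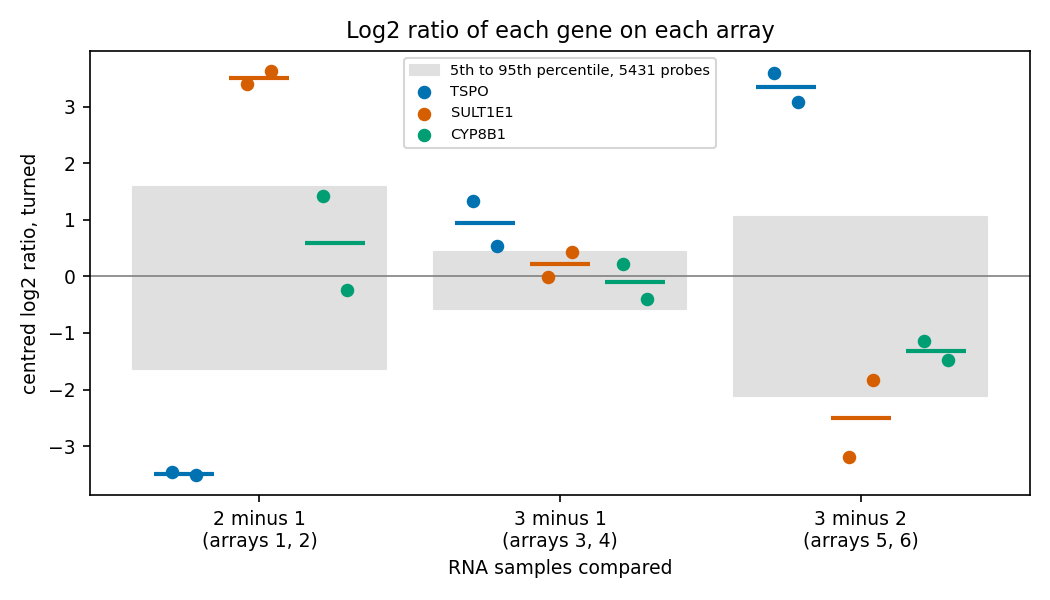
Centred log2 ratio (vertical axis) of TSPO, SULT1E1 and CYP8B1 on each array, turned to the higher-numbered minus the lower-numbered RNA sample, by pair of RNA samples (horizontal axis). Points are arrays, in array order from left to right, short lines are pair averages, and grey areas span the 5th to 95th percentile of the pair averages of 5431 probes. TSPO lies at -3.45 and -3.51 for RNA samples 2 minus 1, where SULT1E1 lies at 3.40 and 3.63, and both change sides for 3 minus 2.

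The loop was fitted in limma over all 5431 tested probes, and the fitted levels are given here relative to the mean of the 3 RNA samples, each with a standard error of 0.25 common to all probes. For TSPO the fitted log2 level was 1.43 in RNA sample 3, 0.85 in RNA sample 1 and -2.27 in RNA sample 2. For SULT1E1 it was 2.01 in RNA sample 2, -0.77 in RNA sample 3 and -1.24 in RNA sample 1. For CYP8B1 it was 0.63 in RNA sample 2, -0.17 in RNA sample 1 and -0.47 in RNA sample 3. RNA sample 2 was at an end of the order for each gene. RNA samples 1 and 3, the neighbours at the other end, differed by 0.58 ± 0.43 (SE) for TSPO, 0.47 ± 0.43 (SE) for SULT1E1 and -0.30 ± 0.43 (SE) for CYP8B1, as 3 minus 1. None of these gaps reached 1.5 times its error in this fit, although that of TSPO did in some of the other settings given below.

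**Figure D2:**
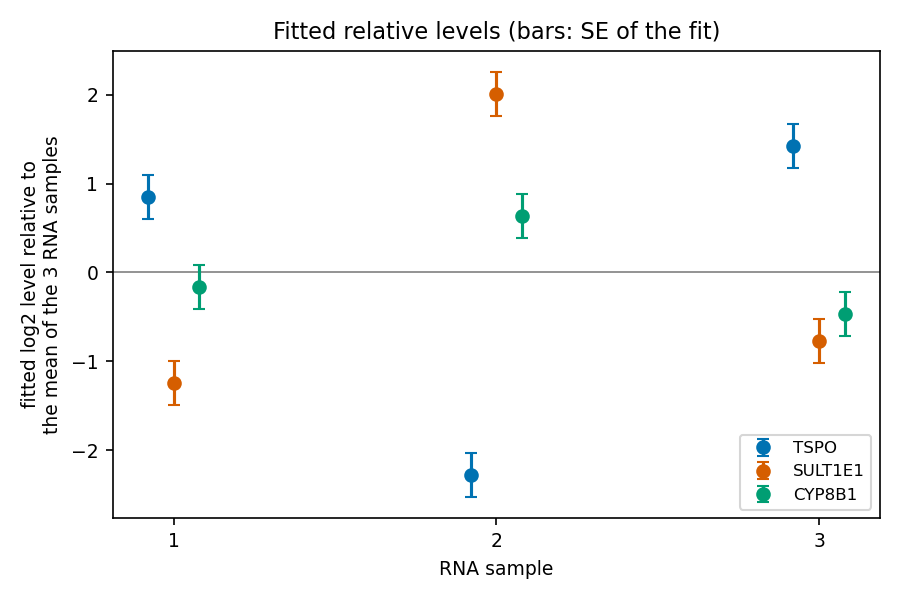
Fitted log2 level of each gene (vertical axis) in each RNA sample (horizontal axis), relative to the mean of the 3 RNA samples, with bars for the standard error of 0.25. RNA sample 2 holds the lowest TSPO level, -2.27, and the highest SULT1E1 and CYP8B1 levels, 2.01 and 0.63.

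At an adjusted p under 0.05 in limma, 1 of the 3 genes was among the probes higher in RNA sample 2 than in RNA sample 1 (SULT1E1, with 10.8% of all tested probes called in that direction) and 1 among those lower (TSPO, with 8.73%). Between RNA samples 3 and 2, 1 gene was among the probes higher in RNA sample 3 (TSPO, with 6.06% called) and 2 among those lower (SULT1E1 and CYP8B1, with 14.6% called). Between RNA samples 3 and 1, 0 of the 3 genes were called, with 0.203% of tested probes called there, 11 probes in all, and 291 probes at an unadjusted p under 0.05. When limma was run on the 6 arrays singly, with the dye as a term, CYP8B1 was not called between RNA samples 3 and 2, where 10.3% of tested probes were called lower. Nor was it with any 1 of the 6 arrays left out. With values as deposited CYP8B1 was also called between RNA samples 2 and 1, where 2172 of 5431 tested probes were called higher. In the single-array fit without array 5, neither TSPO (log2 difference 3.92) nor SULT1E1 (-2.72) was called between RNA samples 3 and 2, and 0 probes were (904 at an unadjusted p under 0.05). Since the genes were chosen on these differences, nothing is read from their counts.

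The genes were next set against each other on the same array, where the centring of the array cancels. For RNA samples 2 minus 1, the log2 ratio of SULT1E1 exceeded that of TSPO by 6.85 on array 1 and 7.14 on array 2. For RNA samples 3 minus 2, it was below that of TSPO by a difference of -6.79 on array 5 and -4.91 on array 6. The mean gaps of 6.99 and -5.85 equal a 127-fold and a 57.6-fold change in the ratio of the genes' signals, in opposite directions, so the balance between SULT1E1 and TSPO was tilted to SULT1E1 in RNA sample 2 against either other RNA sample. Between RNA samples 3 and 1 the gap was -1.34 and -0.12.

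CYP8B1 minus TSPO had the same signs, with gaps of 4.88 and 3.27 for RNA samples 2 minus 1, -4.75 and -4.56 for 3 minus 2, and -1.11 and -0.95 for 3 minus 1. The arrays of the latter pairs lay 0.094 and 0.084 to either side of their mean gap, closer together than those of either gene's own ratio. SULT1E1 minus CYP8B1 was smaller, at 1.97 and 3.87 for RNA samples 2 minus 1 and -2.04 and -0.35 for 3 minus 2, and it changed sign within the pair 3 minus 1, at -0.23 and 0.83. The centred ratios of SULT1E1 and CYP8B1 had the same sign on arrays 1, 5 and 6 and different signs on arrays 2, 3 and 4.

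**Figure D3:**
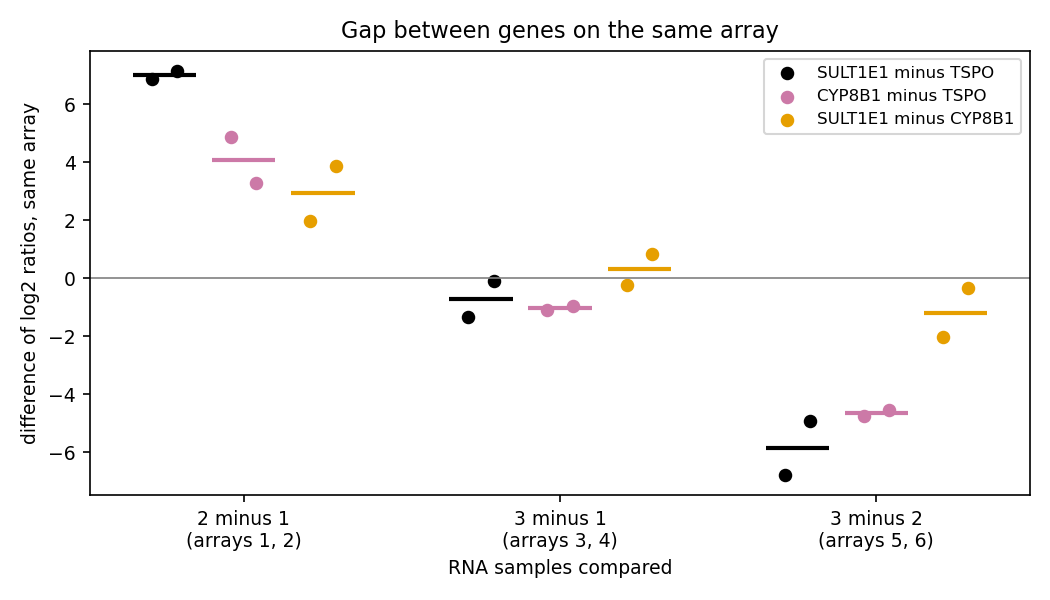
Difference between the log2 ratios of 2 genes on the same array (vertical axis), by pair of RNA samples (horizontal axis). Points are arrays and short lines are the means of a pair. SULT1E1 minus TSPO lies at 6.85 and 7.14 for RNA samples 2 minus 1 and at -6.79 and -4.91 for 3 minus 2.

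The deposited ratios still hold part of the channel signals. Taken out of the log2 scale, 96.65% to 97.85% of an array's tested values equalled a fraction of whole numbers within a relative tolerance of 1e-09 (product of numerator and denominator up to 5e+07), against 2.10% to 2.87% of the same values after a small shift. The fraction gives the lowest whole-number signals that the ratio can come from, and the true signals may be a common multiple of them. They are uncentred scanner values, so they are compared within an array and within a gene only.

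For TSPO the lowest signals were 1229 in RNA sample 2 against 2385 in RNA sample 1 on array 1, and 1385 against 11556 on array 2. RNA sample 2 had 2303 against 21298 in RNA sample 3 on array 5, and 1927 against 8630 on array 6. On array 3 RNA sample 3 had 4192 and RNA sample 1 had 1823, and array 4 gave no fraction within the limit. RNA sample 2 was the lower channel on all 4 of its arrays before any centring.

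For SULT1E1 the lowest signals were 297 in RNA sample 2 against 5 in RNA sample 1 on array 1, and 1115 against 66 on array 2. RNA sample 2 had 1112 against 93 in RNA sample 3 on array 5, and 1233 against 184 on array 6. Arrays 3 and 4 gave 400 and 300 in RNA sample 3 against 441 and 197 in RNA sample 1. RNA sample 2 was the brighter channel on all of its arrays, as it was for the median tested probe before centring. The ratio of array 1 may rest on a channel of only 5 units, where 1 unit more would shift it by 0.26 on the log2 scale, against 0.022 or less on the other arrays.

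For CYP8B1 the lowest signals were 469 in RNA sample 2 against 31 in RNA sample 1 on array 1, and 82 against 71 on array 2. RNA sample 2 had 322 against 111 in RNA sample 3 on array 5, and 184 against 35 on array 6. Array 3 gave 17 in RNA sample 3 and 16 in RNA sample 1, and array 4 gave 261 and 305. Before centring RNA sample 2 was the brighter channel on all 4 of its arrays, and on array 2 this turned with the centring, from an uncentred log2 ratio of 0.21 to -0.24. The median tested probe was also brighter in RNA sample 2 there, with deposited medians of -2.50, 0.45, 0.39 and -0.92 on arrays 1, 2, 5 and 6. On arrays 1 and 6 RNA sample 2 was in Cy3, so a negative median has the same direction. Being the brighter channel before centring is thus not particular to CYP8B1.

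**Figure D4:**
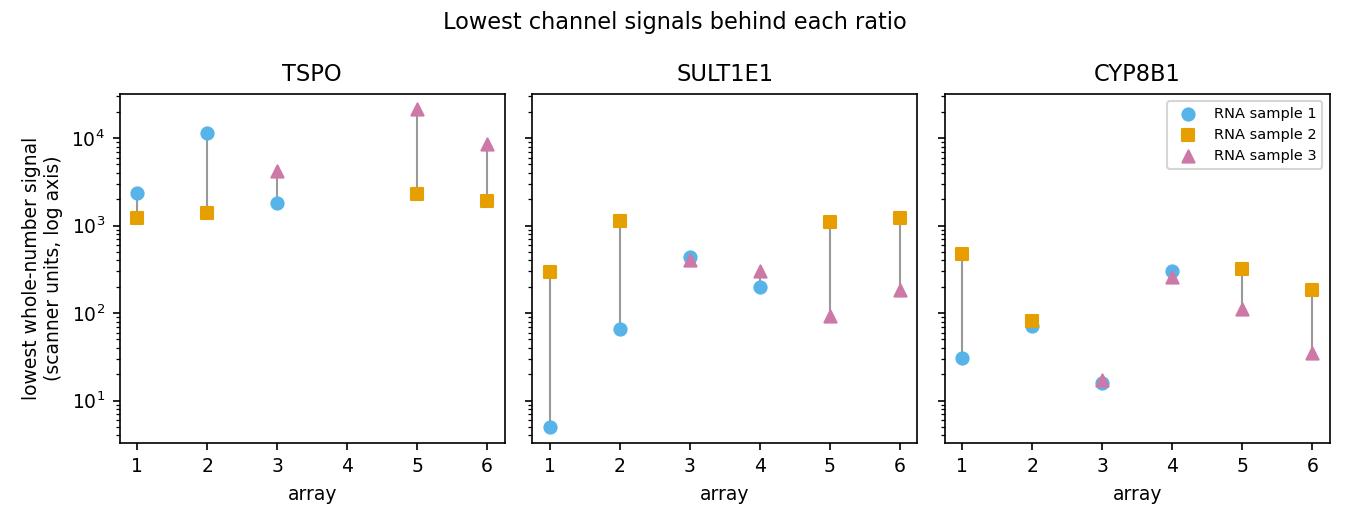
Lowest whole-number signal (vertical log axis, scanner units, not centred) of each RNA sample on each array (horizontal axis), by gene, with a grey line joining the channels of an array. RNA sample 2 is the lower channel for TSPO on arrays 1, 2, 5 and 6 and the higher channel for SULT1E1 and CYP8B1 on the same arrays, and TSPO has no value on array 4. Before centring the median tested probe is also higher in RNA sample 2 on these arrays.

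The dye effect, the part of a pair of arrays that does not turn when the dyes are exchanged, was not used to choose the genes and was tested. For TSPO it was -0.029, -0.40 and -0.26 in the pairs 2 and 1, 3 and 1, and 3 and 2. For SULT1E1 it was 0.12, 0.22 and 0.68, and for CYP8B1 it was -0.83, -0.31 and -0.17. The mean log2 dye effect was -0.23 ± 0.25 (SE) for TSPO, with the same sign in 3 of 3 pairs and an adjusted p of 0.59 in limma. It was 0.34 ± 0.26 (SE) for SULT1E1 (3 of 3 pairs, adjusted p 0.42 in limma) and -0.44 ± 0.26 (SE) for CYP8B1 (3 of 3 pairs, adjusted p 0.31 in limma). None of the 3 genes was called, with 0.0184% of tested probes called. For CYP8B1 the dye effect in the pair 2 and 1 was larger in size than the pair average of 0.59, whereas for TSPO and SULT1E1 in both pairs with RNA sample 2 it was smaller than the pair average.

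In a closed loop the pair averages of 2 minus 1 and 3 minus 2, less that of 3 minus 1, sum to 0 apart from error. The sum was -1.08 for TSPO, 0.79 for SULT1E1 and -0.63 for CYP8B1, against a median size of 0.65 over all tested probes. TSPO closed less well than 77.6% of tested probes, SULT1E1 than 59.7% and CYP8B1 than 48.6%. For TSPO and SULT1E1 the sum was smaller in size than either pair average with RNA sample 2, and for CYP8B1 it exceeded the pair average of 2 minus 1. For each gene the sum was larger in size than the pair average of 3 minus 1, which was 0.94 for TSPO, 0.21 for SULT1E1 and -0.09 for CYP8B1.

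**Figure D5:**
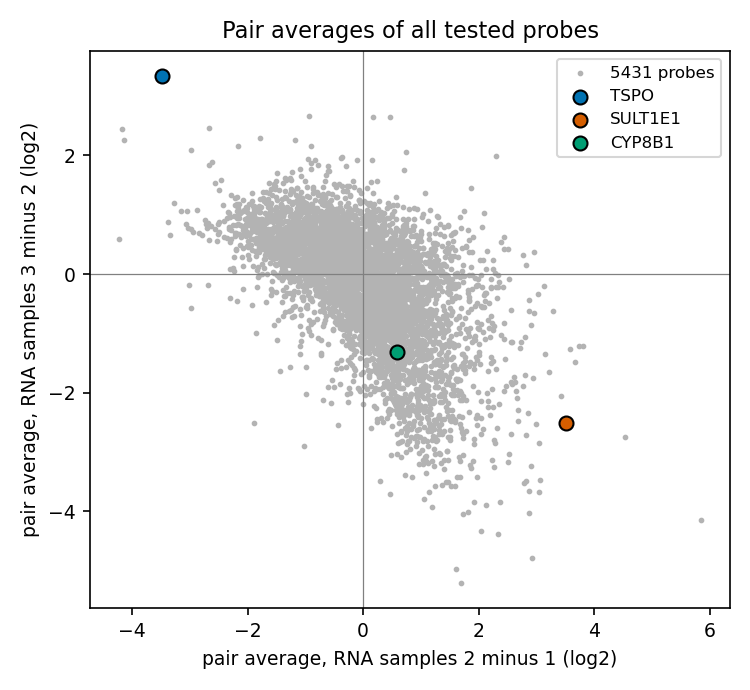
Pair averages (log2) of RNA samples 2 minus 1 (horizontal axis) and 3 minus 2 (vertical axis), which come from separate arrays but share RNA sample 2, for 5431 tested probes (grey) and the 3 genes. TSPO, at -3.48 and 3.34, and SULT1E1, at 3.51 and -2.51, lie at opposite ends of the cloud, and CYP8B1, at 0.59 and -1.31, lies within it.

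Of 150 symbols listed for steroid and sterol handling, 8 had a probe with that symbol, and 3 of these, the 3 genes above, were measured on all 6 arrays. Of 35 symbols for steroid synthesis only CYP21A2, a steroid hydroxylase of the adrenal gland, had one, and of 27 for sterol synthesis 0 did. ACBD3, a Golgi protein that binds TSPO, was measured on 4 arrays and gave 0.38 and 0.53 for RNA samples 3 minus 1 and -0.58 and 1.08 for 3 minus 2. Its arrays went opposite ways in the pair where TSPO had 3.60 and 3.08. CYP7A1, the enzyme that opens the main bile acid pathway, gave -0.45 and 1.31 for 3 minus 1 and -0.10 and 1.29 for 3 minus 2, so its arrays were split in both pairs.

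ESR2, the oestrogen receptor beta, gave 0.10 and 0.04 for RNA samples 3 minus 2, where SULT1E1 had -3.19 and -1.83. For 2 minus 1 it gave 4.00 on array 1 and -0.36 on array 2, and on array 1 its lowest signal was 7 in RNA sample 1 against 632 in RNA sample 2. CYP21A2 gave -0.13 and 0.45 for 3 minus 1. CAV1, a membrane scaffold protein that binds cholesterol, had no pair with both arrays measured. PAQR8, a membrane progestin receptor added after its values were seen, gave -1.49 and 0.80 for 3 minus 1. CYP21A2, CAV1 and PAQR8 had no pair with RNA sample 2 measured on both arrays.

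The named genes with the most similar ratios were ranked by Pearson's r of the 6 centred ratios over the 56 named probes. These ratios were taken before turning, in the deposited direction, and the turned values were not correlated. The ranking is a description, because the 6 arrays share 3 RNA samples and are not independent. For TSPO these were HAPLN1, which links hyaluronan to proteoglycans (r = 0.98), PSMB8, an immunoproteasome subunit (r = 0.90), and OXTR, the oxytocin receptor (r = 0.90). For SULT1E1 they were PPYR1, a receptor for pancreatic polypeptide (r = 0.95), DSG1, a desmosomal cadherin (r = 0.91), and PAG6, a pregnancy-associated glycoprotein (r = 0.84). For CYP8B1 they were ACVR2B, an activin receptor (r = 0.91), PPYR1 (r = 0.90) and CYSLTR2, a leukotriene receptor (r = 0.90). A high r did not mean that the turned values were alike. For RNA samples 2 minus 1, HAPLN1 had -1.32 and -1.01 and OXTR had -3.23 and -0.04, where TSPO had -3.45 and -3.51. DSG1 had 0.72 and -0.10 there, where SULT1E1 had 3.40 and 3.63. For 3 minus 1 DSG1 had 0.63 and -0.24, so its arrays went opposite ways in both pairs. Between the members, r was -0.96 for TSPO and SULT1E1, -0.88 for TSPO and CYP8B1 and 0.83 for SULT1E1 and CYP8B1.

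Of 10 trophectoderm markers 0 had a probe with that symbol, so the blastocyst label could not be checked against them, and a ratio does not show whether a gene is present. Of 8 markers of inner cell mass and primitive endoderm, GATA6 and KLF4 had one. For RNA samples 3 minus 2 GATA6 gave -0.051 and 1.20 and KLF4 gave -0.54 and 0.53. Of 10 cumulus and granulosa markers, INHA and FSHR had one. FSHR gave -0.88 and 0.77 for RNA samples 3 minus 1, the only pair in which both its arrays were measured. INHA, the inhibin alpha subunit, gave 4.50 and 0.38 for 2 minus 1, 0.41 and 0.17 for 3 minus 1 and 0.15 and 0.71 for 3 minus 2. Its lowest signals on array 1 were 2 in RNA sample 1 against 255 in RNA sample 2, where 1 unit more in RNA sample 1 would shift the ratio by 0.58 on the log2 scale. SAL1, the 1 of 4 oviduct and uterus markers with a probe, gave -0.16 and -0.43 for 2 minus 1, and of 5 leukocyte markers CD4 gave -0.77 and 1.85 and TYROBP gave 0.40 and 1.21 for 3 minus 2. Of 4 liver markers only CYP7A1 had a probe. The part of other cells in the differences of TSPO, SULT1E1 and CYP8B1 was not tested, and fewer cells of a type cannot be told apart from less RNA per cell.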

How the data were processed

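RNA of pig blastocysts was amplified in 2 rounds and labelled chemically with Cy3 and Cy5, per the labels' protocols. The authors deposited 1 log2 ratio per probe and array for 20400 probes. The unit follows from the values, and no source used here gives the scanner, background correction or normalisation. Ratios that were whole numbers or their reciprocals (relative tolerance 1e-05) were treated as not measured, which left 5431 probes on all 6 arrays. Gene symbols came from the platform annotation, in which 178 probes had 1 symbol, 0 had several and 20222 are unnamed here.

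Each array was centred on its median, dye-swapped arrays were averaged, and the 3 pair averages were fitted with limma 3.58.1 in R 4.3.3 with 2 coefficients (Benjamini-Hochberg over all tested probes, threshold 0.05). Moderation gave every probe the same variance in this fit, but not in the dye fit or the single-array fits. The dye effect was fitted over the 3 pairs. Named genes are the 3 genes, listed pathway genes and markers, and the 3 named genes most correlated with each. Whole-number fractions were first planned with a tolerance of 1e-05, which matched several fractions for 1 ratio, so 1e-09 was used. The limma fits, but not the other steps, were tested on simulated data. The members and lists were chosen with earlier results of these data known. The number of arrays limits the precision. Alternatives were other centrings, equal spread, single arrays, array 3 turned, floor values kept and each array left out. Loess on signal was added after the data were seen. Probe and gene sequences and genome positions were not used here.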

Additional observations from a re-analysis of the deposited data

How the results depend on the processing

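The dye-swapped pairs of arrays are part of the reported fit, and with 1 group there was no pairing between groups to try. The fitted log2 differences of the 3 genes for RNA samples 2 minus 1 and 3 minus 2 kept their sign under each of the 14 (TSPO) or 15 alternatives. Floor values kept and single arrays with or without the dye term could not change a sign. They leave the fitted difference as reported, such as 3.25 for SULT1E1 (2 minus 1), and alter only its error. With values as deposited, TSPO had -1.91 (2 minus 1) and 2.78 (3 minus 2), SULT1E1 had 4.46 and -3.69, and CYP8B1 had 2.01 and -2.02. With equal spread, TSPO had -2.34 and SULT1E1 2.64 for 2 minus 1. With array 3 turned, TSPO between RNA samples 3 and 1 went from 0.58 to -0.31. After loess on signal SULT1E1 had 3.16 and -2.65 and CYP8B1 0.82 and -1.21. TSPO could not be fitted there, as array 4 gave no fraction, and its arrays gave -3.12 and -3.69 for 2 minus 1 and 3.86 and 4.29 for 3 minus 2. With 1 array left out at a time, TSPO ranged from -3.30 to -2.75 for 2 minus 1, 0.22 to 0.76 for 3 minus 1 and 3.51 to 3.96 for 3 minus 2. SULT1E1 ranged from 2.92 to 3.45, 0.27 to 0.73 and -3.18 to -2.61, and CYP8B1 from 0.64 to 1.20, -0.52 to -0.10 and -1.30 to -0.78. Gaps on single arrays ranged from -0.23 to 0.83 (SULT1E1 minus CYP8B1, 3 minus 1), 1.97 to 3.87 (2 minus 1) and -2.04 to -0.35 (3 minus 2). CYP8B1 minus TSPO ranged from 3.27 to 4.88 (2 minus 1), and SULT1E1 minus TSPO from -1.34 to -0.12 (3 minus 1) and -6.79 to -4.91 (3 minus 2).

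The number of probes called in limma depended strongly on the setting, and the cause was not tested. The settings also differed in their errors. In the reported fit every probe had a standard error of 0.43, while with single arrays and a dye term it ran from 0.30 to 1.10 over the probes. For RNA samples 2 minus 1, 1823 and 1768 probes had an unadjusted p under 0.05 in these 2 limma fits. For RNA samples 2 minus 1 it was 1059, against 2182 with values as deposited, 589 centred on the probes measured on that array, 533 after loess, 306 with single arrays and a dye term, 51 without the dye term, 0 over all probes with floor values (2368 at an unadjusted p under 0.05) and 9 to 476 with 1 array left out. For 3 minus 2 it was 1123, against 665 after loess, 656 with single arrays, 336 without the dye term, 0 with floor values (1862 unadjusted) and 0 (904 unadjusted) to 1317 with 1 array left out. For 3 minus 1 it was 11, against 27 with array 3 turned, 108 with equal spread, 3 centred on the probes measured on that array, and 0 as deposited, after loess, with single arrays with or without the dye term, with floor values and with any 1 array left out (72 to 697 unadjusted). For the dye effect it was 1, against 0 as deposited or with floor values (1017 and 1358 unadjusted) and 0 to 801 with 1 array or pair left out. The split of calls moved with the centring. For 2 minus 1, 585 higher and 474 lower became 2172 and 10 as deposited, 480 and 109 centred on the probes measured on that array and 491 and 742 centred on named genes. For 3 minus 2, 329 and 794 became 5 and 1406, 30 and 960, and 640 and 702. Low signal may limit SULT1E1 on array 1 and CYP8B1 on arrays 1, 3 and 6, as the fractions give only the lowest possible signals.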
